A study of Mus musculus with 17 samples.

Results

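Tumour lines of the first generation (TL1) were compared with the kind of cell they are derived from, mesenchymal stem cells (MSC) of the bone marrow of C57BL/6 mice with a p53 R172H knock-in allele. This allele changes 1 residue of the tumour suppressor p53, and both groups carry it. Libraries were chosen by title alone: 6 TL1 libraries and 3 MSC libraries of the 17 in the series, measured by RNA sequencing without any treatment. TL1 are cell lines grown from tumours of such MSC, while second-generation lines and clones, the other 8 libraries, were not used. The titles carry a number from 1 to 3 in parentheses, held by 1 MSC library and 2 TL1 libraries each, so the lines are named TL1 1a, 1b, 2a, 2b, 3a and 3b. The labels do not say what the number marks, nor whether a group's libraries are from separate mice or cultures. The p-values therefore measure only how these libraries vary, and that variation may be technical in part. MSC were grown in MSC medium and tumour-derived cells in medium with the cytokine LIF on plates coated with agar, so the origin of the cells and their culture cannot be told apart. No library of cells with wild-type p53 was part of the comparison.

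MSC are stromal cells that can form fat, bone and cartilage, secrete collagen-rich matrix, and in the marrow feed blood stem cells with factors such as CXCL12. The R172H mutant corresponds to a hotspot mutation of human cancers and impairs the binding of p53 to DNA, so that its usual target genes lose much of their p53-driven expression. Tumours that arise from mesenchymal cells are sarcomas, and sarcoma cells may keep, lose or switch mesenchymal lineage programmes, including that of skeletal muscle.

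Totals were 12540701 to 14574984 counts per library, and the ribosomal RNA precursor Rn45s took 0.490% to 1.28% of them. Values below are in CPM, a library's counts divided by its size in units of 1000000 counts, after sizes were adjusted by TMM, edgeR's default normalization. Correlations of log2 CPM were 0.960 to 0.971 among MSC, 0.822 to 0.954 among TL1 and 0.792 to 0.871 between the groups, so the tumour lines differed more from each other than the MSC cultures did. TL1 3a had the lowest correlation with another line (0.822, with TL1 2a). Summed over 8 defining stromal markers, MSC libraries had 3433 to 7763 CPM and TL1 libraries 292 to 1224 CPM, with no marker under 1 CPM in all libraries of a group. Most of the sum in MSC was Cxcl12, and the other 7 markers summed to 965 to 1341 CPM among MSC and 232 to 867 CPM among lines. Of these, Ly6a, Nt5e and Vcam1 overlapped between the groups, with log2 changes of 0.90, 3.32 and 0.60 (adjusted p = 0.537, 0.186 and 0.322). Sums over 10 macrophage markers were 3.82 to 10.1 and 4.12 to 12.3 CPM, and those of lymphoid, erythroid and endothelial markers were at most 3.66 CPM in any library. Trp53 itself was counted at 259, 201 and 198 CPM in MSC and 126 to 301 CPM (median 241) in TL1. Its log2 change was 0.08 (SE 0.28, adjusted p = 0.885), and the groups overlapped.

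The comparison asked which genes separate the tumour lines from MSC. Of 13010 genes tested with edgeR, 356 were called higher in TL1 at an adjusted p under 0.05 (2.74%) and 415 lower (3.19%), together 5.93%, and 3163 had an unadjusted p under 0.05. Among the called genes, 182 rose and 235 fell by more than 4-fold, with a median log2 change of 2.06 for those that rose and -2.33 for those that fell. Libraries of both groups did not overlap for 2270 genes (17.4%), with TL1 higher for 8.36% and lower for 9.09% of the genes tested, 762 of the 771 called genes among them. Loss to near silence was seen for 26 called genes, whose MSC mean was 10 CPM or more and whose TL1 libraries were all under 1 CPM, and the reverse for 13. When only library totals were used for scaling, 480 genes were called higher and 360 lower. The counts leaned on the few MSC libraries and on line 3a: 31 higher and 144 lower genes were called without MSC 1, 155 and 255 without MSC 2, 38 and 130 without MSC 3, 548 and 683 without TL1 3a, and 231 higher genes without TL1 1a.

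**Figure D1:**
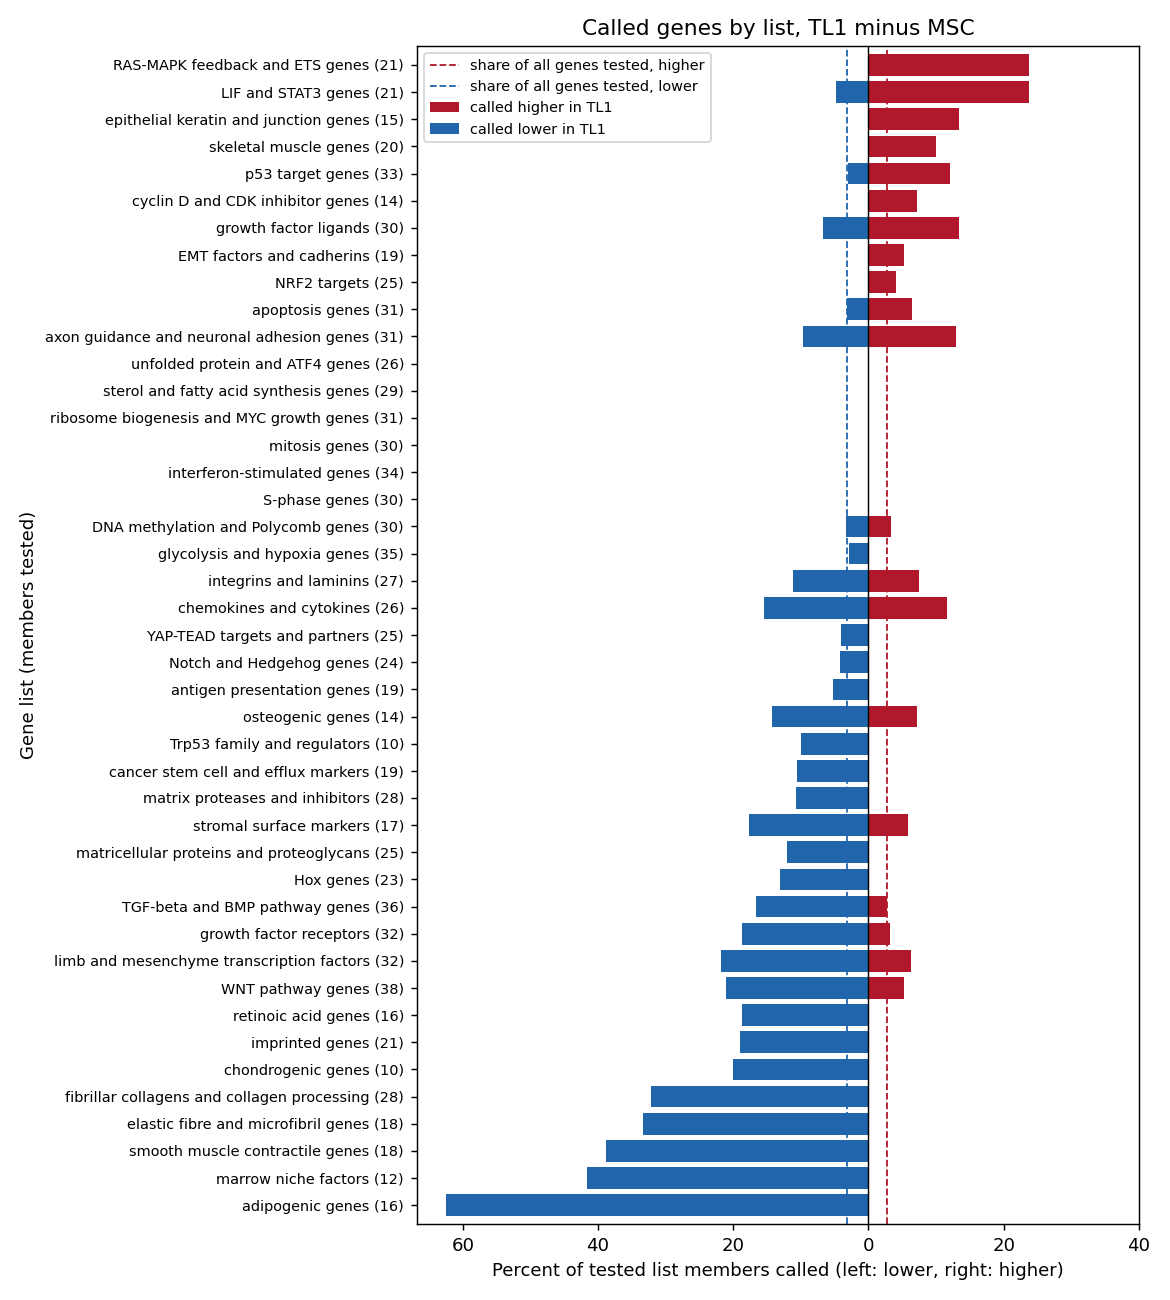
Percent of the tested members of each gene list (members tested in brackets, lists with at least 10) that were called higher (red, right) or lower (blue, left) in TL1 than in MSC, with dashed lines at 2.74% and 3.19%, the shares of all tested genes. Adipogenic genes had the largest share called lower in this plot (62.5%), and RAS-MAPK feedback and LIF and STAT3 genes the largest share called higher (23.8% each).

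In the 12 largest decreases no line reached 1 CPM. Pitx1, a homeobox factor of the hindlimb (chromosome 13, 55825044 to 55836190), was counted at 72.3, 59.4 and 50.7 CPM in MSC and 0 to 0.0764 CPM (median 0.0665) in TL1. It fell by 10.06 on the log2 scale with a standard error (SE) of 0.44 (adjusted p = 1.14e-05), and all changes below are on this scale. Svep1, a large secreted adhesion protein, had 207, 97.3 and 315 CPM in MSC and 0.0653 to 0.718 CPM (median 0.322) in TL1 and fell by 9.22 (SE 0.56, adjusted p = 8.33e-05). Every TL1 library was below every MSC library for both genes. Srpx, a sushi-repeat protein, had 28.7, 12.8 and 68.4 CPM in MSC and 0 to 0.131 CPM (median 0) in TL1 and was lower (2 counts in the lower group, ratio 1554, 95% counting interval 429.5 to 12848, adjusted p = 0.000703). Dscam, an adhesion molecule of neurons, had 11.3, 17.6 and 5.11 CPM in MSC and no count in TL1, and was at least 313-fold lower (adjusted p = 0.00766). Aldh1a2, which makes retinoic acid, varied widely among MSC, with 6.6, 226 and 27.5 CPM in MSC and 0 to 0.261 CPM (median 0.0763) in TL1, and fell by 9.70 (SE 1.17, adjusted p = 0.00248). Col8a2, a short-chain collagen, fell by 8.80 (SE 0.91, adjusted p = 0.00170) and Adam23, a disintegrin, fell by 8.56 (SE 0.98, adjusted p = 0.00222). Bmp5, a bone morphogenetic protein, had 8.17, 21.1 and 18.2 CPM in MSC and 0 to 0.131 CPM (median 0) in TL1 and was lower (3 counts in the lower group, ratio 444, 95% counting interval 151 to 2158, adjusted p = 0.00126). Ndn, an imprinted growth suppressor, had 48.5, 28.7 and 52.7 CPM in MSC and 0 to 0.686 CPM (median 0) in TL1 and fell by 8.37 (SE 1.03, adjusted p = 0.00281), and Zcchc5 was lower (3 counts in the lower group, ratio 624, 95% counting interval 213 to 3029.6, adjusted p = 0.00189). Rps4y2 and Rpl39l, which were called lower (log2 change -9.05 and log2 change -8.94), are close copies of other ribosomal protein genes, and counting could split reads between copies. Calls of Pitx1, Svep1, Srpx, Aldh1a2, Col8a2, Adam23, Bmp5, Ndn, Zcchc5, Rps4y2 and Rpl39l held in all 9 fits that each left out 1 library. The call of Dscam was lost without MSC 1 (adjusted p up to 0.0530). Aldh1a2 lost its call with limma-voom (adjusted p = 0.0674).

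Promoters of 3 of these near-silent genes are shown, from 250 bases before to 50 bases after the RefSeq start (build GRCm38.p6), since they differ widely in CpG content. CpG dinucleotides are in capitals. Svep1 lies at chr4:58206547-58206846, minus strand, Ndn at chr7:62348027-62348326, plus strand, and Aldh1a2 at chr9:71215539-71215838, plus strand.
Svep1: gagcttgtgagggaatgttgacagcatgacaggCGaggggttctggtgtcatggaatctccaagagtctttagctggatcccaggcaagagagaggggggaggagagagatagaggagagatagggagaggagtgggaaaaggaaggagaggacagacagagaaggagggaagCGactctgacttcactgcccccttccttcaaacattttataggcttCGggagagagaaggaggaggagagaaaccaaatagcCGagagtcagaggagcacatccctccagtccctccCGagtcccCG
Ndn: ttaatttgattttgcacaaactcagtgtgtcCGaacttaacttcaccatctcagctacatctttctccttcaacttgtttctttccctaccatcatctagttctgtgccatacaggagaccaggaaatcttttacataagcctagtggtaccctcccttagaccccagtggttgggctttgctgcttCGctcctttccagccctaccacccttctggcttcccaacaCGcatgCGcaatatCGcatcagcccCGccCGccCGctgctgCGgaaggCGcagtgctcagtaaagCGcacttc
Aldh1a2: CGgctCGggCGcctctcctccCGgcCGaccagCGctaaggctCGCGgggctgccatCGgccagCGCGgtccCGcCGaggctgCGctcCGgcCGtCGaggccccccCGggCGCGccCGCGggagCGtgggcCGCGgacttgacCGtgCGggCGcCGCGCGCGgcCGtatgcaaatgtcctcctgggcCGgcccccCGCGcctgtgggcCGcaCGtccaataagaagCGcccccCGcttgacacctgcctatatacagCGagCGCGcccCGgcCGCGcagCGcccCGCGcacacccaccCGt
They hold 6, 11 and 50 CpG, and the observed over expected CpG ratio was 0.298 for Svep1, 0.623 for Ndn and 1.11 for Aldh1a2, so near silence in TL1 went with CpG-poor as well as CpG-dense promoters. Over the 309 genes called lower with a promoter in the table, the median ratio was 0.677, and 59.9% had a ratio over 0.6. The same values were 0.723 and 63.1% for 263 genes called higher and 0.768 and 73.0% for 10289 tested genes.

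Genes by which marrow stroma supports blood stem cells were lower. In the niche factor list, 5 of 12 tested members were called lower (41.7%), against 3.19% of all genes, and all 12 changes were negative (median -2.07, against 0.09 for all genes tested). In bulk libraries, fewer cells of a type and less RNA per cell cannot be told apart. Cxcl12, a chemokine that keeps blood stem cells in the marrow, was counted at 3145, 2468 and 6422 CPM in MSC and 60.6 to 357 CPM (median 176) in TL1 and fell by 4.51 (SE 0.56, adjusted p = 0.00298). Fgf7, a growth factor for epithelia, had 298, 221 and 344 CPM in MSC and 19.3 to 81.4 CPM (median 30.2) in TL1 and fell by 2.95 (SE 0.39, adjusted p = 0.00370). Jag1, a Notch ligand, fell by 3.20 (SE 0.45, adjusted p = 0.00445), Nov, a matricellular CCN protein chosen after its values were seen, fell by 3.79 (SE 0.89, adjusted p = 0.0384), and Angpt1, the ligand of Tie2, fell by 2.03 (SE 0.42, adjusted p = 0.0231). Line 3b kept the highest Fgf7 and Jag1 among TL1, and still lay below the MSC. With 1 library left out, the count of calls was 3 without MSC 1 and 3 without MSC 3. Surface markers of MSC moved both ways, with 1 of 17 tested members called higher (5.88%) and 3 lower (17.6%). Eng, a TGF-beta co-receptor also known as CD105, had 67.1, 55 and 98.4 CPM in MSC and 1.83 to 9.99 CPM (median 2.15) in TL1 and fell by 4.33 (SE 0.55, adjusted p = 0.00313). Thy1 (CD90) fell by 5.29 (SE 1.19, adjusted p = 0.0324) and Pdgfrb fell by 2.04 (SE 0.43, adjusted p = 0.0258). Ngfr (CD271), a marker of primitive marrow stroma, had 0.495, 0.557 and 0.229 CPM in MSC and 0.611 to 56.6 CPM (median 11.2) in TL1 and rose by 5.47 (SE 1.34, adjusted p = 0.0432). For surface markers, the count of calls was 1 without MSC 1, 2 without MSC 2, 1 without MSC 3, 2 without TL1 1a and 2 without TL1 1b. Calls of Cxcl12, Fgf7, Jag1 and Eng held in all 9 fits that each left out 1 library. Those of Nov, Angpt1, Thy1, Pdgfrb and Ngfr were lost without at least 1 of MSC 1, MSC 2, MSC 3, TL1 1a, TL1 1b, TL1 2a, TL1 2b and TL1 3b (adjusted p up to 0.200). Nov and Ngfr lost theirs in 7 of these 9 fits.

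Adipogenic genes formed the list with the largest share of calls: 10 of 16 tested members called lower (62.5%), median log2 change -3.56. Lpl, the lipase that frees fatty acids from lipoproteins, had 564, 244 and 562 CPM in MSC 1 to 3 and 6.37, 0.653, 0.406, 0.382, 1.44 and 1.68 CPM in TL1 1a, 1b, 2a, 2b, 3a and 3b. All 6 lines were more than 10-fold below the lowest MSC library, and Lpl fell by 7.97 (SE 0.86, adjusted p = 0.00184). Plin4, a lipid droplet coat protein, had 99.7, 31.2 and 91 CPM in MSC and 1.87 to 6.78 CPM (median 3.84) in TL1 and fell by 4.18 (SE 0.44, adjusted p = 0.00180). Ebf1, an early B-cell factor that prepares fat precursors, had 80.6, 52.5 and 62.9 CPM in MSC and 4.35 to 18.4 CPM (median 6.15) in TL1 and fell by 2.96 (SE 0.46, adjusted p = 0.00728). Its relative Ebf2 had 5.45, 3.02 and 3.2 CPM in MSC and 0 to 0.152 CPM (median 0) in TL1 and was lower (3 counts in the lower group, ratio 108, 95% counting interval 36.1 to 528, adjusted p = 0.00358). Members chosen after their values were seen were Pparg, the master regulator of fat cells, which fell by 2.75 (SE 0.69, adjusted p = 0.0477), Fabp4, a fatty acid carrier, which fell by 4.87 (SE 0.85, adjusted p = 0.0132), Zfp423, a factor of fat precursors, which fell by 5.34 (SE 0.96, adjusted p = 0.0147), and Agt, angiotensinogen, which fell by 6.58 (SE 1.08, adjusted p = 0.00946). Adipoq was called too, at levels of 0.825, 1.43 and 3.28 CPM in MSC. For this list, the count of calls was 6 without MSC 1 and 4 without MSC 3. Calls of Lpl, Plin4, Ebf1 and Ebf2 held in all 9 fits that each left out 1 library. Those of Pparg, Fabp4, Zfp423, Agt and Adipoq were lost without at least 1 of MSC 1, MSC 2, MSC 3, TL1 1a, TL1 1b and TL1 3b (adjusted p up to 0.200).

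Bone and cartilage genes gave fewer calls, with 1 of 14 tested members called higher (7.14%) and 2 lower (14.3%) for bone, and 2 of 10 tested members called lower (20%) for cartilage. Ibsp, bone sialoprotein, was at 0.825, 2.39 and 46.4 CPM in MSC and 0 to 0.152 CPM (median 0.0733) in TL1, mainly in MSC 3, and fell by 7.88 (SE 1.29, adjusted p = 0.00946). Col2a1, the main cartilage collagen, had 199.7, 38.5 and 392 CPM in MSC and 0.0749 to 2.59 CPM (median 0.330) in TL1 and fell by 8.11 (SE 0.99, adjusted p = 0.00261). Col11a1, its partner in fibrils, had 207, 161 and 271 CPM in MSC and 0.0677 to 18.6 CPM (median 1.4) in TL1 and fell by 5.47 (SE 1.19, adjusted p = 0.0290). Phex, an endopeptidase of bone cells that guards phosphate balance, moved the other way, with 1.24, 2.23 and 1.98 CPM in MSC and 4.59 to 47 CPM (median 23.5) in TL1, and rose by 3.72 (SE 0.67, adjusted p = 0.0151). For the osteogenic list, the count of calls was 1 without MSC 1, 1 without MSC 2, 0 without MSC 3 and 9 without TL1 3a, and for the chondrogenic list 1 without MSC 1, 1 without MSC 2, 1 without MSC 3 and 1 without TL1 1a. The call of Col2a1 held in all 9 fits that each left out 1 library. Those of Ibsp, Col11a1 and Phex were lost without at least 1 of MSC 1, MSC 2, MSC 3 and TL1 1a (adjusted p up to 0.112).

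**Figure D2:**
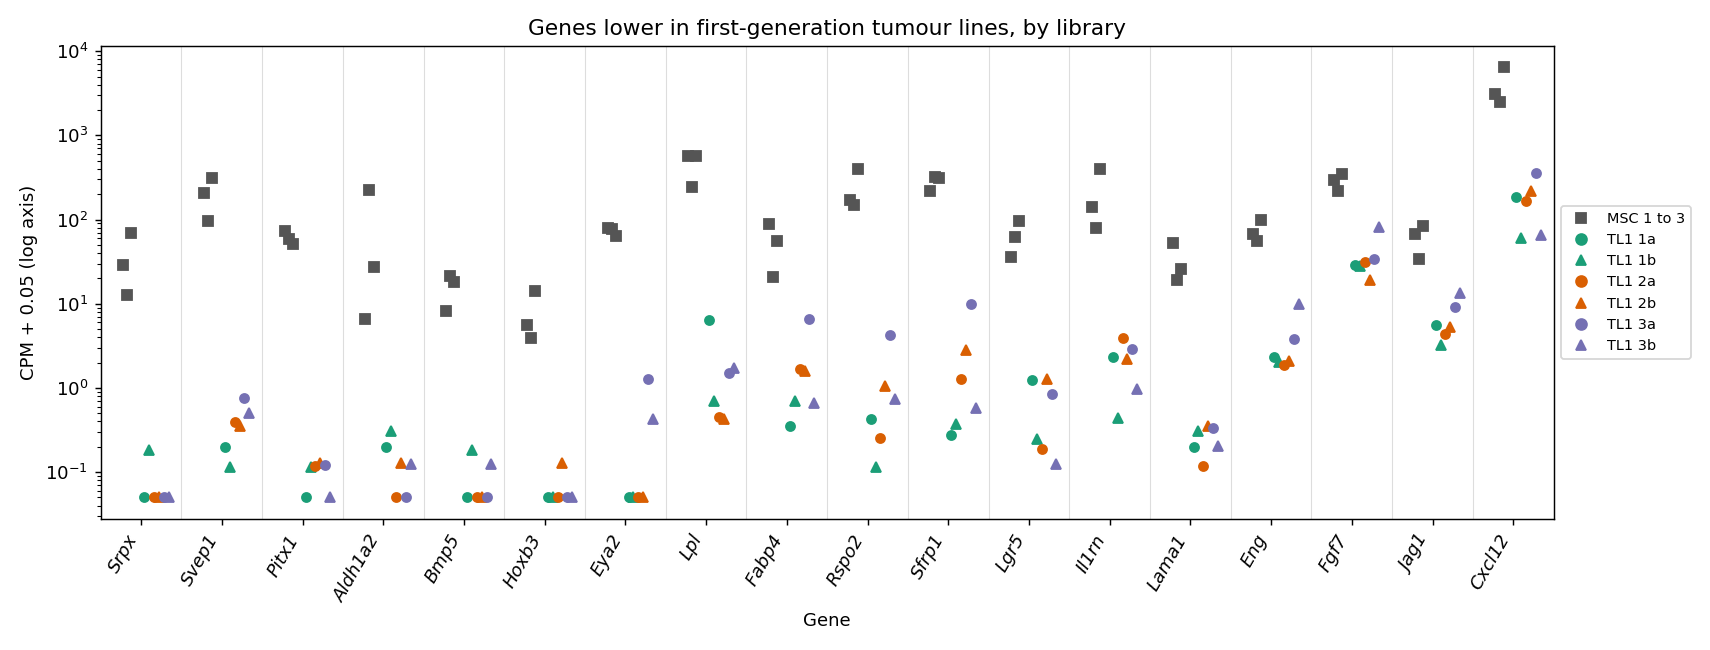
CPM plus 0.05 on a log axis of 18 called genes, with a square for each of the 3 MSC libraries and circles and triangles for the 6 TL1 lines, coloured by the number in their titles. In each of these genes every MSC library lies above every TL1 library, and Srpx, Pitx1, Bmp5 and Hoxb3 sit near the bottom of the axis in all lines, at most 0.131 CPM.

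Genes of collagens and their processing were lower in the lines as well. In the list of fibrillar collagens and collagen processing, 9 of 28 tested members were called lower (32.1%), 25 of 28 changes were negative (median -1.92), and 19 members were lower in all lines than in all MSC, against 9.09% of all genes. Serpinh1, the collagen chaperone HSP47, was tight in both groups, with 2709.6, 1948 and 1912 CPM in MSC and 558 to 781 CPM (median 614) in TL1, and fell by 1.75 (SE 0.19, adjusted p = 0.00180). Lox, which crosslinks collagen and elastin, had 3643, 3088 and 4595 CPM in MSC and 269 to 1007 CPM (median 559) in TL1 and fell by 2.75 (SE 0.39, adjusted p = 0.00481). Col6a2 had 1448, 1264 and 3457 CPM in MSC and 35.9 to 473 CPM (median 80.6) in TL1 and fell by 3.89 (SE 0.81, adjusted p = 0.0242), and Col15a1, a basement membrane zone collagen, fell by 7.19 (SE 0.93, adjusted p = 0.00334). Line 3a was the highest TL1 library for Serpinh1, Lox and Col6a2, and the median deviation of the list from the mean of the 9 libraries was 0.82 in TL1 3a, -1.31 in TL1 2a and 1.41 to 1.62 in MSC. With 1 library left out, the count of calls was 3 without MSC 1, 5 without MSC 2, 3 without MSC 3, 4 without TL1 1a and 16 without TL1 3a. Calls of Serpinh1, Lox and Col15a1 held in all 9 fits that each left out 1 library. The call of Col6a2 was lost without at least 1 of MSC 1, MSC 3 and TL1 1a (adjusted p up to 0.124). Lox lost its call with the first lines of the numbers alone (adjusted p = 0.0555). Col15a1 lost its call with the first lines of the numbers alone (adjusted p = 0.0536).

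Elastic fibre and microfibril genes had 6 of 18 tested members called lower (33.3%). Fbn1, the main microfibril protein, had 914, 691 and 1095 CPM in MSC and 11 to 139.7 CPM (median 73.5) in TL1 and fell by 3.54 (SE 0.60, adjusted p = 0.0110). Fbn2, its fetal relative, had 176, 101 and 213 CPM in MSC and 0.0677 to 6.46 CPM (median 0.191) in TL1 and fell by 7.05 (SE 1.22, adjusted p = 0.0125). Only line 3a kept more than 1 CPM of Fbn2. Matricellular and proteoglycan genes had 3 of 25 tested members called lower (12%). Aspn, a small leucine-rich proteoglycan, fell by 5.71 (SE 0.94, adjusted p = 0.00981), Vcan, a large one, fell by 2.37 (SE 0.44, adjusted p = 0.0169), and Sparc, a collagen-binding protein of bone, fell by 1.39 (SE 0.34, adjusted p = 0.0438). Sparc was at 1325, 1032, 1059.6, 1346, 3136 and 1402 CPM in the 6 lines, highest in 3a. Of proteases and inhibitors, 3 of 28 tested members were called lower (10.7%): Adam23, Adamts1, which fell by 1.88 (SE 0.33, adjusted p = 0.0132), and Timp3, an inhibitor of metalloproteases, which fell by 2.28 (SE 0.47, adjusted p = 0.0236). The median deviation of the matricellular list was 0.999 in TL1 3a, within the 0.95 to 1.10 of MSC, and -0.93 to -0.18 in the other lines. That of proteases and inhibitors was 0.79 in TL1 3a, within the 0.62 to 0.80 of MSC, and -0.89 to 0.07 in the other lines. For elastic fibres, the count of calls was 3 without MSC 1 and 2 without MSC 3. For matricellular genes it was 1 without MSC 1, 0 without MSC 3 and 8 without TL1 3a, and for proteases 1 without MSC 3, 8 without TL1 3a and 5 without TL1 3b. Calls of Fbn1, Fbn2, Aspn, Vcan, Sparc, Adamts1 and Timp3 were lost without at least 1 of MSC 1, MSC 2, MSC 3, TL1 1a, TL1 1b, TL1 2a, TL1 2b and TL1 3b (adjusted p up to 0.188). Sparc lost its call in 8 of the 9 fits that each left out 1 library, and with scaling by library totals. Fbn1 and Aspn each lost theirs in 1 of those fits.

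Integrins and laminins split by member, with 2 of 27 tested members called higher (7.41%) and 3 lower (11.1%). Itga3, a laminin receptor chain, had 48.1, 89 and 23 CPM in MSC and 299 to 727 CPM (median 471) in TL1 and rose by 3.17 (SE 0.48, adjusted p = 0.00694). Itga7, the laminin receptor chain of muscle, had 23, 50.3 and 9.0 CPM in MSC 1 to 3 and 1065, 489, 136, 291, 370.0 and 103 CPM in TL1 1a, 1b, 2a, 2b, 3a and 3b and rose by 3.90 (SE 0.91, adjusted p = 0.0379). Both were higher in all 6 lines than in all 3 MSC libraries. Itga1, a collagen receptor chain, fell by 3.10 (SE 0.72, adjusted p = 0.0376), and Lama1, a laminin chain, had 52.5, 18.9 and 25.9 CPM in MSC and 0.0677 to 0.306 CPM (median 0.207) in TL1 and fell by 7.25 (SE 0.48, adjusted p = 0.000107). For the list, the count of calls was 1 without MSC 1, 3 without MSC 2, 2 without MSC 3, 2 without TL1 1b, 2 without TL1 2b and 8 without TL1 3a. Smooth muscle contractile genes, which mark contractile stroma, had 7 of 18 tested members called lower (38.9%), median -1.5. Acta2, smooth muscle actin, had 6204, 3246 and 4543 CPM in MSC and 173 to 1038 CPM (median 477) in TL1 and fell by 3.17 (SE 0.51, adjusted p = 0.00880). Lmod1, an actin nucleator of smooth muscle, had 63.3, 30.6 and 32.2 CPM in MSC and 0.225 to 1.79 CPM (median 0.468) in TL1 and fell by 5.89 (SE 0.63, adjusted p = 0.00180). Cnn2 (log2 change -1.39) and Cald1 (log2 change -1.07) were called lower, both actin-binding proteins with broader expression. For this list, the count of calls was 2 without MSC 1, 3 without MSC 2 and 2 without MSC 3. Calls of Lama1, Acta2 and Lmod1 held in all 9 fits that each left out 1 library. Those of Itga3, Itga7, Itga1, Cnn2 and Cald1 were lost without at least 1 of MSC 1, MSC 2, MSC 3, TL1 1a, TL1 1b, TL1 2b and TL1 3b (adjusted p up to 0.175). Itga1 lost its call in 7 of these 9 fits and Itga3 in 1.

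Skeletal muscle genes were mostly higher in the lines, with few calls. Of the 23 members 20 passed the filter on low counts, and 19 of these had positive changes with a median of 3.34, against 0.09 for all genes. Of the 20, 4 were higher in all lines than in all MSC (against 8.36% of all genes), and 2 were called (10% against 2.74%), Cdh15 and Chrna1. The small count went with a wide spread among lines. Cdh15, the M-cadherin of myoblasts, had 8.91, 5.57 and 0.458 CPM in MSC 1 to 3 and 394, 46.5, 65.2, 261, 254 and 65.4 CPM in TL1 1a, 1b, 2a, 2b, 3a and 3b, and rose by 5.18 (SE 1.13, adjusted p = 0.0293). Chrna1, the alpha subunit of the muscle acetylcholine receptor, had 27.6, 20.2 and 2.82 CPM in MSC 1 to 3 and 469, 255, 87.6, 118, 193 and 82.4 CPM in TL1 1a, 1b, 2a, 2b, 3a and 3b, and rose by 3.58 (SE 0.86, adjusted p = 0.0411). Every line was above every MSC library in both genes. Myod1, the master factor of myoblasts, had 17.9, 4.62 and 0.458 CPM in MSC 1 to 3 and 572, 60.8, 36.6, 132, 570.5 and 118 CPM in TL1 1a, 1b, 2a, 2b, 3a and 3b. It was higher in all lines than in all MSC, and had a log2 change of 5.02 (SE 1.4, adjusted p = 0.0639), short of the threshold. Myf5, a related factor, was chosen after its values were seen and had 0.413, 6.45 and 0 CPM in MSC 1 to 3 and 81, 124, 76.4, 68.1, 13.4 and 26.3 CPM in TL1 1a, 1b, 2a, 2b, 3a and 3b, with adjusted p = 0.0603. Genes of the differentiated state were highest in line 3a. Myog, the factor of terminal differentiation, had 21.4, 1.11, 4.0, 14.3, 275 and 6.4 CPM in TL1 1a to 3b and 11.9, 1.91 and 1.45 CPM in MSC, and Des, the muscle intermediate filament, 1277, 476, 65.8, 274, 1594 and 54.7 CPM and 19.97, 61.5 and 2.82 CPM. The groups overlapped in both, with adjusted p = 0.280 and 0.0993. The median deviation of the list was 3.54 in TL1 3a, 1.70 in TL1 1a, 1.24 in TL1 2b and -1.12 in TL1 1b, so line 1b was at the level of MSC, -0.68 to -2.36. For this list, the count of calls was 0 without MSC 1, 1 without MSC 2, 0 without MSC 3, 1 without TL1 1a, 1 without TL1 2b and 4 without TL1 3a. Calls of Cdh15 and Chrna1 were lost without at least 1 of MSC 1, MSC 2, MSC 3, TL1 1a, TL1 1b and TL1 2b (adjusted p up to 0.120).

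Genes of the muscle endplate and striated muscle outside that list were called too, though all were chosen by their values, Chrnd and Trim55 as members of the 12 largest increases and the others after their values were seen. Chrnd, the delta subunit of the same receptor, had 3.14, 0.318 and 0.0763 CPM in MSC 1 to 3 and 177, 158, 12, 9.32, 99.1 and 32.7 CPM in TL1 1a, 1b, 2a, 2b, 3a and 3b, and rose by 6.11 (SE 1.5, adjusted p = 0.0441). Chrnb1, its beta subunit, had 7.51, 9.63 and 3.36 CPM in MSC and 27.8 to 125 CPM (median 108) in TL1 and rose by 3.77 (SE 0.57, adjusted p = 0.00688). Rapsn, which clusters the receptor under the nerve ending, had 2.31, 3.82 and 0.458 CPM in MSC 1 to 3 and 77.9, 49.6, 91, 82.3, 64.5 and 23.9 CPM in TL1 1a, 1b, 2a, 2b, 3a and 3b, and rose by 4.88 (SE 0.71, adjusted p = 0.00531). In Rapsn the lines lay within 4-fold of each other, closer than in Myod1. Popdc3, a membrane protein of striated muscle, had 3.3, 4.77 and 0.458 CPM in MSC and 22.6 to 133 CPM (median 55.7) in TL1 and rose by 4.50 (SE 0.80, adjusted p = 0.0145), and Trim55, a sarcomere-linked ubiquitin ligase, rose by 6.84 (SE 1.66, adjusted p = 0.0425). Chrng, the fetal gamma subunit and a list member, had 2.39, 0.557 and 0.458 CPM in MSC and 1.76 to 81.4 CPM (median 9.51) in TL1, and its groups overlapped (adjusted p = 0.110). Calls of Chrnb1 and Rapsn held in all 9 fits that each left out 1 library. Those of Chrnd, Popdc3 and Trim55 were lost without at least 1 of MSC 1, MSC 2, MSC 3, TL1 1a, TL1 1b and TL1 3b (adjusted p up to 0.181).

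**Figure D3:**
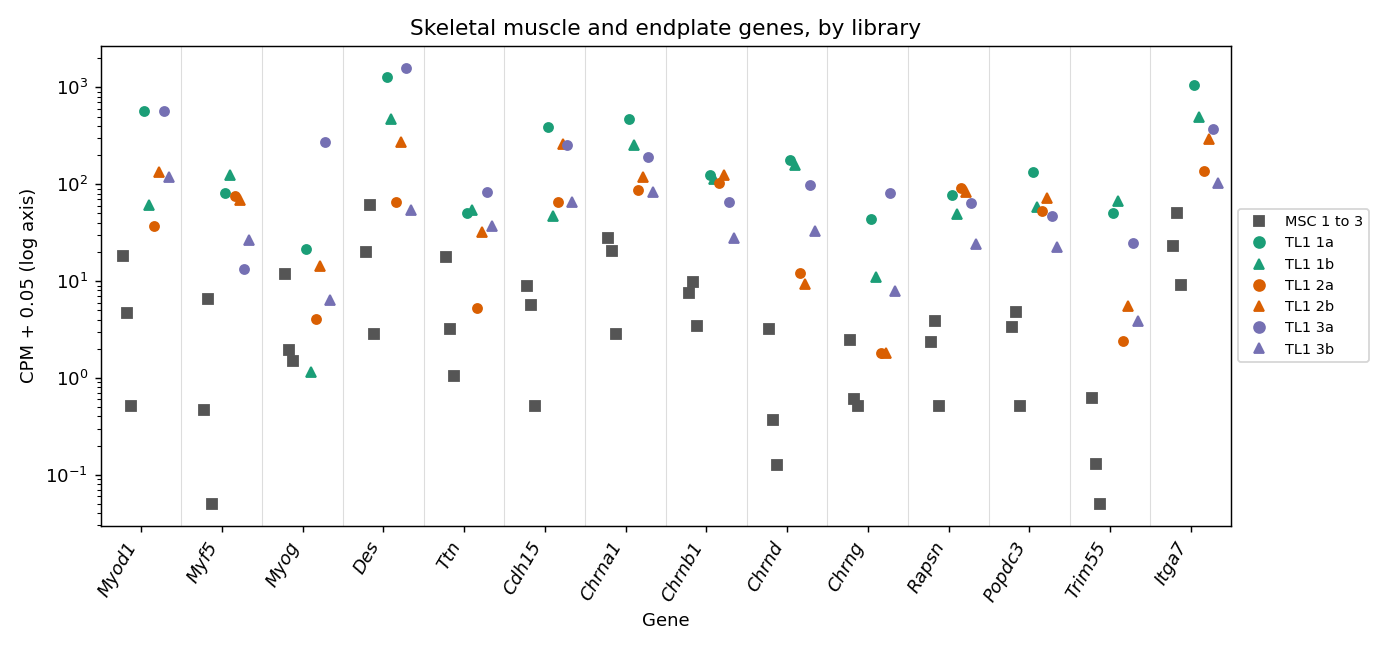
CPM plus 0.05 on a log axis of 14 skeletal muscle and endplate genes in the 3 MSC libraries (squares) and the 6 TL1 lines (circles and triangles, coloured by number). Rapsn, Chrnb1, Cdh15 and Chrna1 are higher in every line than in every MSC library, while in Myog and Des some lines overlap with MSC, with TL1 3a at the top.

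Promoters of 3 acetylcholine receptor subunit genes are shown beside the values of these genes, of which Chrng was not called. Chrna1 lies at chr2:73580289-73580588, minus strand, Chrng at chr1:87205561-87205860, plus strand, and Chrnb1 at chr11:69795888-69796187, minus strand (RefSeq, GRCm38.p6). The capitals mark CAGCTG, a palindrome that reads the same on both strands and is a form of the E-box that MyoD-type factors can bind.
Chrna1: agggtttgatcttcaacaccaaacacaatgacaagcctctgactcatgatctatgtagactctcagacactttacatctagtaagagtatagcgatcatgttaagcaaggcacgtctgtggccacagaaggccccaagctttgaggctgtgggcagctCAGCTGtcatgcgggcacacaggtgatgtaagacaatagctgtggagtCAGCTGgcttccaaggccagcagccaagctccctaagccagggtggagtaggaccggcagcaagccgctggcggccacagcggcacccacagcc
Chrng: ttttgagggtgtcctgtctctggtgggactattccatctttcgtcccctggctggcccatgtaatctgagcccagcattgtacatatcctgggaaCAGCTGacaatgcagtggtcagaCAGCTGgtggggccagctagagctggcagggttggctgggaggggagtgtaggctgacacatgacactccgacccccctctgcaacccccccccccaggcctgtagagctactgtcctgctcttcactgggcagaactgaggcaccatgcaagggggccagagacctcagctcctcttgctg
Chrnb1: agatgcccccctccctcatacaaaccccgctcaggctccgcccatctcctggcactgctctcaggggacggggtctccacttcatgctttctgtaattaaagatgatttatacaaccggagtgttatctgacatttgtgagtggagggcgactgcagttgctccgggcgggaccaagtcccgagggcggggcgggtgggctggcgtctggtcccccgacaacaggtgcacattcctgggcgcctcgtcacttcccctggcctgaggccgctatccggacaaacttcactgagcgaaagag
The motif occurred 2 times in the window of Chrna1, 2 times in that of Chrng and 0 times in that of Chrnb1. Other forms of the E-box were not counted, so 0 does not mean that Chrnb1 lacks one. The window of Chrnd is not shown. It was present in 20.9% of the windows of genes called higher, 15.2% of those called lower and 14.8% of all tested, a description of letters and not of binding. TGANTCA, the core bound by AP-1, was in 8.37%, 6.80% and 4.93% on either strand, and TTCNNNGAA, the core of STAT sites, in 6.84%, 7.44% and 6.85%. GGAATG, the core bound by TEAD factors, was in 14.5%, 13.6% and 11.8%. Sites of TTCNNNGAA and GGAATG can share the bases GAA, and each motif was counted alone.

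Largest increases outside muscle were of varied function. Aqp5, a water channel, had 0.0825, 0.318 and 0.153 CPM in MSC 1 to 3 and 162, 4.77, 102, 312, 34.8 and 217 CPM in TL1 1a, 1b, 2a, 2b, 3a and 3b, and rose by 9.48 (SE 1.6, adjusted p = 0.0110). Dynap, a membrane protein, had 0.248, 0.398 and 0 CPM in MSC and 13.6 to 105 CPM (median 50.1) in TL1 and rose by 7.95 (SE 1.15, adjusted p = 0.00531). Fmnl1, a formin that builds actin filaments, had 0.413, 0.398 and 0.305 CPM in MSC and 11.7 to 88.4 CPM (median 56.6) in TL1 and rose by 7.15 (SE 0.79, adjusted p = 0.00189). Slco4a1, an organic anion transporter, had no count in MSC and 0.687 to 61.9 CPM (median 18.6) in TL1, and was at least 321-fold higher (adjusted p = 0.0476). Slc9a2, a sodium-proton exchanger, was higher (2 counts in the lower group, ratio 213, 95% counting interval 58.8 to 1762, adjusted p = 0.0148). Dock8, an exchange factor for small GTPases, rose by 6.00 (SE 1.16, adjusted p = 0.0198). Igfbp6, which binds insulin-like growth factors and was chosen after its values were seen, had 2.06, 4.77 and 3.97 CPM in MSC and 39 to 189 CPM (median 94.7) in TL1 and rose by 4.94 (SE 0.66, adjusted p = 0.00359). Keratin and junction genes had 2 of 15 tested members called higher (13.3%), Krt18, a simple-epithelium keratin, which rose by 6.61 (SE 1.07, adjusted p = 0.00904), and Pkp3, a desmosome protein, which was higher (1 count in the lower group, ratio 188, 95% counting interval 33.5 to 7431, adjusted p = 0.00376). The sum over 8 epithelial markers ranged from 4.65 to 109 CPM among MSC and from 7.72 to 447 CPM among lines, highest in TL1 3b, and their part in these results was not tested. For keratin and junction genes, the count of calls was 1 without MSC 1, 1 without MSC 3 and 4 without TL1 1b. Calls of Dynap, Fmnl1, Igfbp6 and Pkp3 held in all 9 fits that each left out 1 library. Those of Aqp5, Slco4a1, Slc9a2, Dock8 and Krt18 were lost without at least 1 of MSC 1, MSC 2, MSC 3, TL1 1a, TL1 1b, TL1 3a and TL1 3b (adjusted p up to 0.162). Slco4a1 lost its call in 7 of these 9 fits. Dynap lost its call with limma-voom (adjusted p = 0.109). Fmnl1 lost its call with limma-voom (adjusted p = 0.0519).

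Positional and developmental transcription factors changed member by member. Hox genes had 3 of 23 tested members called lower (13%). Hoxb2 had 5.12, 4.93 and 9.31 CPM in MSC and no count in TL1, and was at least 181-fold lower (adjusted p = 0.00671). Hoxb3, its neighbour, had 5.53, 3.82 and 14 CPM in MSC and was lower (1 count in the lower group, ratio 661, 95% counting interval 118 to 26199, adjusted p = 0.00135). Hoxa5 fell by 1.23 (SE 0.29, adjusted p = 0.0366), from 35, 24.9 and 18.1 CPM to 8.63 to 16.2 CPM (median 9.55). Factors of limb and mesenchyme had 2 of 32 tested members called higher (6.25%) and 7 lower (21.9%). Eya2, a cofactor of homeobox proteins, had 80.4, 77.4 and 64.1 CPM in MSC 1 to 3 and 0, 0, 0, 0, 1.22 and 0.381 CPM in TL1 1a, 1b, 2a, 2b, 3a and 3b, and fell by 8.07 (SE 1.06, adjusted p = 0.00354). Tbx18, a T-box factor of mural and limb mesenchyme, had 118, 79.2 and 106 CPM in MSC and 13.8 to 34.5 CPM (median 22.1) in TL1 and fell by 2.15 (SE 0.28, adjusted p = 0.00325). Imprinted genes had 4 of 21 tested members called lower (19%): Ndn, Mest (log2 change -3.71), Dio3 (log2 change -5.89) and Nnat (log2 change -3.01). Igf2 and H19 had adjusted p = 0.772 and 0.964 and are described with the differences between lines. Retinoic acid genes had 3 of 16 tested members called lower (18.8%): Aldh1a2, Dhrs3, a retinaldehyde reductase, which fell by 3.03 (SE 0.66, adjusted p = 0.0291), and Cyp26b1, which degrades retinoic acid and fell by 3.15 (SE 0.80, adjusted p = 0.0493). Of the 16 changes of retinoic acid genes, 8 were positive and 8 negative (median 0.16). Their median deviation was 0.71 in TL1 3a, 0.47 in TL1 3b and -1.055 to -0.57 in the other lines, beside -0.05 to 0.45 in MSC. For limb factors, the count of calls was 3 without MSC 1, 5 without MSC 2 and 3 without MSC 3. For imprinted genes it was 1 without MSC 1 and 1 without MSC 3, for retinoic acid genes 1 without MSC 1, 1 without MSC 2, 1 without MSC 3 and 1 without TL1 1a, and for Hox genes 5 without TL1 3b. Calls of Hoxb2, Hoxb3, Eya2 and Tbx18 held in all 9 fits that each left out 1 library. Those of Hoxa5, Mest, Dio3, Nnat, Dhrs3 and Cyp26b1 were lost without at least 1 of MSC 1, MSC 2, MSC 3, TL1 1a, TL1 1b, TL1 2a, TL1 2b and TL1 3b (adjusted p up to 0.271). Cyp26b1 lost its call in 8 of these 9 fits and Hoxa5 in 7.

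Growth factor ligands and receptors had calls in both directions. Among ligands, 4 of 30 tested members were called higher (13.3%) and 2 lower (6.67%). Tgfa, a ligand of the EGF receptor, had 0.0825, 0.398 and 0.0763 CPM in MSC and 0.991 to 7.32 CPM (median 4.37) in TL1 and rose by 4.57 (SE 0.86, adjusted p = 0.0169), and Areg, another, had 0.165, 0.239 and 0.229 CPM in MSC and 0.610 to 3.18 CPM (median 1.65) in TL1 and rose by 3.06 (SE 0.68, adjusted p = 0.0318). Pdgfb, a mitogen of mesenchymal cells, had 1.16, 1.59 and 0.458 CPM in MSC and 4.27 to 28.6 CPM (median 13.4) in TL1 and rose by 3.83 (SE 0.71, adjusted p = 0.0166). Gdnf, the ligand of the Ret complex, had 11.3, 18 and 6.18 CPM in MSC and 23 to 61.5 CPM (median 49.6) in TL1 and rose by 1.99 (SE 0.40, adjusted p = 0.0227). Among receptors, 1 of 32 tested members was called higher (3.12%) and 6 lower (18.8%). Ret, the GDNF receptor kinase, had 32.7, 27.8 and 22.7 CPM in MSC and 0.306 to 3.97 CPM (median 0.778) in TL1 and fell by 4.45 (SE 0.70, adjusted p = 0.00838), while Kit had 4.7, 3.02 and 1.3 CPM in MSC and no count in TL1, and was at least 82.5-fold lower (adjusted p = 0.0166). Epha4 fell by 5.43 (SE 0.99, adjusted p = 0.0158). Epha2, an ephrin receptor, was the one called higher, with 30.8, 79.4 and 26.8 CPM in MSC and 169.8 to 339 CPM (median 314) in TL1, and rose by 2.61 (SE 0.42, adjusted p = 0.00904). Its ligand Efna1, in the axon guidance list, had 2.31, 2.15 and 3.81 CPM in MSC and 18.4 to 38.8 CPM (median 27) in TL1 and rose by 3.33 (SE 0.33, adjusted p = 0.00135). Egfr was lower in all lines than in all MSC, at 59.3, 48.4 and 90.9 CPM in MSC and 1.9 to 32.5 CPM (median 5.57) in TL1, and had a log2 change of -2.70 (SE 0.77, adjusted p = 0.0682), short of the threshold. For ligands the count of calls was 1 without MSC 1 and 1 without MSC 3, and for receptors 1 without MSC 1, 1 without MSC 3 and 12 without TL1 3a. Calls of Ret and Efna1 held in all 9 fits that each left out 1 library. Those of Tgfa, Areg, Pdgfb, Gdnf, Kit, Epha4 and Epha2 were lost without at least 1 of MSC 1, MSC 2, MSC 3 and TL1 1a (adjusted p up to 0.166).

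Feedback genes of the RAS-MAPK cascade, which ERK activity induces, had 5 of 21 tested members called higher (23.8%) against 2.74% of all genes, and 18 of 21 changes were positive (median 0.78). Dusp4, a phosphatase that inactivates ERK in the nucleus, had 9.24, 11.3 and 6.03 CPM in MSC 1 to 3 and 95.1, 66.8, 66.4, 36.9, 57.3 and 109 CPM in TL1 1a, 1b, 2a, 2b, 3a and 3b, and rose by 3.02 (SE 0.40, adjusted p = 0.00343). Phlda1 had 38.9, 55.5 and 22.9 CPM in MSC and 107 to 182 CPM (median 136) in TL1 and rose by 1.87 (SE 0.30, adjusted p = 0.00904). Etv4, an ETS factor, rose by 2.34 (SE 0.57, adjusted p = 0.0425), Ier3, an immediate early gene, rose by 1.59 (SE 0.37, adjusted p = 0.0354), and Dusp5, chosen after its values were seen, rose by 1.62 (SE 0.39, adjusted p = 0.0429). Each was above all MSC libraries in all 6 lines. For this list, the count of calls was 1 without MSC 1, 2 without MSC 3, 3 without TL1 1a, 2 without TL1 1b, 2 without TL1 2a, 3 without TL1 2b and 2 without TL1 3b. LIF and STAT3 genes had 5 of 21 tested members called higher (23.8%) and 1 lower (4.76%), against 2.74% and 3.19% of all genes, and Ier3 is counted in both of these lists. Of the 21 LIF and STAT3 changes, 13 were positive and 8 negative (median 0.64). The median deviation of these genes was 0.85 in TL1 3a and 0.23 in TL1 1a. In TL1 1b, 2a, 2b and 3b it was -0.41 to 0.003, within the -0.42 to 0.09 of MSC. Pim3, a survival kinase, had 33.7, 41.5 and 26.5 CPM in MSC and 103 to 189.9 CPM (median 119) in TL1 and rose by 1.92 (SE 0.25, adjusted p = 0.00343). Its relative Pim1 had 13, 19.7 and 10.5 CPM in MSC and 32 to 86.7 CPM (median 46.1) in TL1 and rose by 1.84 (SE 0.36, adjusted p = 0.0196). Neither overlapped between the groups. Junb rose by 1.76 (SE 0.36, adjusted p = 0.0224), and Bcl3, chosen after its values were seen, rose by 2.04 (SE 0.46, adjusted p = 0.0326). Socs3, the feedback inhibitor of this pathway, had 44.6, 43.3 and 48.3 CPM in MSC and 35.4 to 272 CPM (median 58.7) in TL1 with overlapping groups (adjusted p = 0.334), and the receptor gene Lifr adjusted p = 0.596. Hp, haptoglobin, an acute phase gene, fell (log2 change -8.05), with 44.8, 25.5 and 80.7 CPM in MSC and 0.0677 to 0.306 CPM (median 0.151) in TL1. For this second list, the count of calls was 2 without MSC 1 and 2 without MSC 3. Calls of Dusp4, Pim3 and Hp held in all 9 fits that each left out 1 library. Those of Phlda1, Etv4, Ier3, Dusp5, Pim1, Junb and Bcl3 were lost without at least 1 of MSC 1, MSC 2, MSC 3, TL1 1a, TL1 1b, TL1 2a, TL1 2b and TL1 3b (adjusted p up to 0.206). Etv4 and Dusp5 lost theirs in 7 of these 9 fits, and Phlda1 in 1.

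WNT pathway genes had 2 of 38 tested members called higher (5.26%) and 8 lower (21.1%). Those lower included the agonist Rspo2, the R-spondin receptor Lgr5 and the inhibitors Sfrp1 and Nkd2. Rspo2 had 169, 151 and 402 CPM in MSC and 0.0653 to 4.16 CPM (median 0.530) in TL1 and fell by 7.79 (SE 0.94, adjusted p = 0.00248). Lgr5 had 35.4, 61.4 and 96.3 CPM in MSC and 0.0762 to 1.22 CPM (median 0.493) in TL1 and fell by 6.73 (SE 0.74, adjusted p = 0.00189). Sfrp1 had 218, 318 and 316 CPM in MSC and 0.225 to 9.98 CPM (median 0.876) in TL1 and fell by 6.82 (SE 1.02, adjusted p = 0.00614), and Nkd2 fell by 4.98 (SE 0.74, adjusted p = 0.00614). The others called lower were Fzd5, Lrp6, Lgr4 and Frzb, and those called higher were Lgr6 and Tcf7, all 6 named after their values were seen. Of the 38 changes, 24 were negative and 14 positive. The median deviation of the WNT list was 0.84 in TL1 3a, within the 0.74 to 0.96 of MSC, and -1.115 to -0.30 in the other lines. For TGF-beta and BMP genes it was 0.60 in TL1 3a, within the 0.45 to 0.85 of MSC, and -0.79 to -0.13 in the other lines. TGF-beta and BMP genes had 1 of 36 tested members called higher (2.78%) and 6 lower (16.7%). Id2, a helix-loop-helix inhibitor, had 23.6, 20.6 and 27.8 CPM in MSC and 70.2 to 265 CPM (median 145) in TL1 and rose by 2.64 (SE 0.46, adjusted p = 0.0126), while Fstl1 fell by 2.17 (SE 0.38, adjusted p = 0.0125) and Tgfbr3, betaglycan, fell by 2.00 (SE 0.40, adjusted p = 0.0215). Notch and Hedgehog genes had 1 of 24 tested members called lower (4.17%), Jag1, and YAP-TEAD genes 1 of 25 tested members called lower (4.0%), Arhgef17 (log2 change -0.89), both near the 3.19% of all genes. The count was 2 without TL1 2b and 3 without TL1 3a for Notch and Hedgehog genes, and 0 without MSC 1, 0 without MSC 3, 0 without TL1 1a, 0 without TL1 2a, 0 without TL1 2b and 2 without TL1 3a for YAP-TEAD genes. Axon guidance genes had 4 of 31 tested members called higher (12.9%) and 3 lower (9.68%), with Sema4d at 0.660, 0.955 and 1.22 CPM in MSC and 3.89 to 17.7 CPM (median 13) in TL1 (log2 change 3.69) and Slit3 at 9.16, 1.75 and 15.2 CPM in MSC and 0 to 0.152 CPM (median 0.0382) in TL1 (log2 change -6.97). For WNT genes the count of calls was 5 without MSC 3, for TGF-beta genes 1 without MSC 1, 4 without MSC 2, 1 without MSC 3 and 12 without TL1 3a, and for axon guidance genes 3 without MSC 1 and 4 without MSC 3. Calls of Rspo2, Lgr5, Sfrp1, Nkd2, Sema4d and Slit3 held in all 9 fits that each left out 1 library. Those of Id2, Fstl1, Tgfbr3 and Arhgef17 were lost without at least 1 of MSC 1, MSC 2, MSC 3, TL1 1a, TL1 1b, TL1 2a and TL1 2b (adjusted p up to 0.185). Arhgef17 lost its call in 7 of these 9 fits. Sfrp1 lost its call with the first lines of the numbers alone (adjusted p = 0.0568).

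Direct p53 targets had 4 of 33 tested members called higher (12.1%) and 1 lower (3.03%), against 2.74% and 3.19% of all genes, and their median was -0.04. Eda2r, a receptor of the TNF family, had 0.165, 0.239 and 0.229 CPM in MSC and 2.67 to 11.9 CPM (median 6.04) in TL1 and rose by 4.94 (SE 0.70, adjusted p = 0.00455). Pmaip1, the death protein NOXA, had 5.36, 11.4 and 3.66 CPM in MSC and 17.1 to 67.1 CPM (median 29.2) in TL1 and rose by 2.29 (SE 0.55, adjusted p = 0.0399). Plk3, a stress kinase, rose by 1.95 (SE 0.42, adjusted p = 0.0285), and Sulf2, a heparan sulfatase, fell by 3.68 (SE 0.75, adjusted p = 0.0225). Cdkn1a, the CDK inhibitor p21, was higher in all lines than in all MSC, at 23, 21.2 and 11.1 CPM in MSC 1 to 3 and 313, 208, 41.8, 42.9, 269.6 and 65.9 CPM in TL1 1a, 1b, 2a, 2b, 3a and 3b, and missed the threshold (adjusted p = 0.0542). Mdm2 and Cdkn2a overlapped between groups (adjusted p = 0.533 and 0.649). Of 10 tested members of the p53 family and its regulators, 1 was called, lower (10%). This was Trp63, which had 6.68, 6.53 and 25.6 CPM in MSC and 0.196 to 3.05 CPM (median 1.19) in TL1, and fell by 3.33 (SE 0.81, adjusted p = 0.0432). Cdk6, which drives the G1 phase with cyclin D, had 5.69, 9.87 and 5.57 CPM in MSC and 18.4 to 41 CPM (median 23.8) in TL1 and rose by 1.98 (SE 0.36, adjusted p = 0.0146). Cdk6 was the 1 of 14 tested cyclin D and CDK inhibitor genes called (7.14%). For this list, the count of calls was 0 without MSC 1, 0 without MSC 3, 2 without TL1 2a, 2 without TL1 2b and 2 without TL1 3b. Apoptosis genes had 2 of 31 tested members called higher (6.45%) and 1 lower (3.23%). Besides Pmaip1, Bcl2l1, the survival protein BCL-XL, rose by 0.93 (SE 0.22, adjusted p = 0.0405), and Bok fell by 1.20 (SE 0.28, adjusted p = 0.0348). For p53 targets, the count of calls was 2 without MSC 1, 1 without MSC 3 and 3 without TL1 1a, and for apoptosis genes 0 without MSC 1, 0 without MSC 3, 0 without TL1 1a, 6 without TL1 3a and 5 without TL1 3b. The call of Eda2r held in all 9 fits that each left out 1 library. Those of Pmaip1, Plk3, Sulf2, Trp63, Cdk6, Bcl2l1 and Bok were lost without at least 1 of MSC 1, MSC 2, MSC 3, TL1 1a, TL1 1b, TL1 2a, TL1 2b, TL1 3a and TL1 3b (adjusted p up to 0.261). Trp63 lost its call in 8 of these 9 fits and Bcl2l1 in 7.

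Cell cycle genes gave no calls with edgeR. Of 30 S-phase genes, 28 had positive changes (median 0.68), 5 had an unadjusted p under 0.05, and DESeq2 called 1 and limma-voom 0, while 4 were called without TL1 3a. Of 30 mitosis genes, 25 had positive changes, and 0 had an unadjusted p under 0.05 or a call by DESeq2 or limma-voom. TL1 3a had the lowest median of both lists in any library, with deviations of -1.01 and -0.95, while TL1 2a and 2b had the highest, 0.98 and 1.00 for S-phase genes. MSC 1 to 3 were at -0.16, -0.10 and -0.82 for S-phase genes and at 0.11, 0.26 and -0.74 for mitosis genes, so MSC 3 was the lowest MSC library in both. For mitosis genes TL1 1a and 1b, at -0.20 and -0.11, lay below MSC 1 and MSC 2. Interferon-stimulated genes had 0 of 34 called, 4 at an unadjusted p under 0.05, 4 calls by DESeq2 and 1 by limma-voom, and fits without TL1 1a and without TL1 2a called 1 and 2. Their median deviation spread from -1.90 in TL1 1a to 2.28 in TL1 2a and from -1.03 in MSC 1 to 1.43 in MSC 3, a spread within groups wider than the difference between them. Ribosome biogenesis genes had 0 of 31 called by edgeR, 7 at an unadjusted p under 0.05, 4 calls by DESeq2 and 0 by limma-voom. Sterol and fatty acid genes had 0 of 29, 7, 4 and 0, and unfolded protein and ATF4 genes 0 of 26, 5, 4 and 1. Fits without 1 line called up to 3 ribosome biogenesis genes (without TL1 3a), and 1 of each of the other lists at most.

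Among immune ligands, 3 of 26 tested members were called higher (11.5%) and 4 lower (15.4%). Il1rn, the antagonist of the interleukin-1 receptor, had 139.6, 79.4 and 394 CPM in MSC and 0.392 to 3.86 CPM (median 2.19) in TL1 and fell by 6.62 (SE 0.68, adjusted p = 0.00170). Il33, an alarmin, had 0.330, 0.637 and 0.534 CPM in MSC 1 to 3 and 49.1, 117, 5.01, 5.19, 15.5 and 11.5 CPM in TL1 1a, 1b, 2a, 2b, 3a and 3b, and rose by 6.06 (SE 1.38, adjusted p = 0.0343). Ccl25, a chemokine of thymus and gut, rose by 2.16 (SE 0.41, adjusted p = 0.0176). Of antigen presentation genes, 18 of 19 had negative changes (median -0.85), and 1 was called lower (5.26%), Pdia3 (log2 change -0.78). Only 2 of the 19 were lower in all lines than in all MSC, against 9.09% of all genes. The median deviation of the list was 0.70 in TL1 2a and -1.15 to -0.004 in the other lines, beside 0.21, 1.08 and 0.80 in MSC 1 to 3. Other lists gave 1 or 2 calls, several of them near the shares of all genes, 2.74% higher and 3.19% lower. NRF2 targets had 1 of 25 tested members called higher (4%) and glycolysis and hypoxia genes 1 of 35 lower (2.86%). DNA methylation and Polycomb genes had 1 of 30 called each way (3.33%), and pluripotency genes 1 of 8 higher (12.5%). Klf5 rose by 2.99 (SE 0.62, adjusted p = 0.0236), the NRF2 target Gsr, glutathione reductase, rose by 1.56 (SE 0.32, adjusted p = 0.0227), and Higd1a, a hypoxia-induced mitochondrial protein, fell by 1.55 (SE 0.25, adjusted p = 0.00890). Cbx7, a Polycomb subunit, rose by 2.36 (SE 0.44, adjusted p = 0.0166) and Tet1, which oxidises methylcytosine, fell by 2.72 (SE 0.56, adjusted p = 0.0238). Cd14 was the 1 of 5 tested macrophage markers called higher (20%), with 2.81, 3.5 and 4.58 CPM in MSC and 7.64 to 23.7 CPM (median 13.8) in TL1 (log2 change 1.99). The macrophage-defining genes Ptprc, Csf1r and Itgam belong to the marker sum given above, which overlapped between groups. Sox2, a stem cell factor, was at 0, 0 and 0.0763 CPM in MSC 1 to 3 and 39, 0.131, 1.08, 12.8, 0.215 and 41.2 CPM in TL1 1a, 1b, 2a, 2b, 3a and 3b, high in 1a and 3b and with adjusted p = 0.0811. With 1 library left out, counts were 0 without MSC 1, 0 without MSC 3, 3 without TL1 3a and 3 without TL1 3b for the pluripotency list of Klf5, 0 without MSC 1, 0 without MSC 3, 4 without TL1 3a and 3 without TL1 3b for NRF2 targets, 2 without TL1 2b, 3 without TL1 3a and 7 without TL1 3b for glycolysis and hypoxia genes, and 0 without MSC 1, 0 without MSC 2, 0 without MSC 3 and 4 without TL1 3a for DNA methylation and Polycomb genes. They were 0 without MSC 1, 0 without MSC 2, 0 without MSC 3, 0 without TL1 1a and 2 without TL1 2a for antigen presentation genes. For chemokines, the count of calls was 2 without MSC 1, 3 without MSC 2, 2 without MSC 3 and 3 without TL1 1a. Calls of Il1rn and Higd1a held in all 9 fits that each left out 1 library. Those of Il33, Ccl25, Pdia3, Klf5, Gsr, Cbx7, Tet1 and Cd14 were lost without at least 1 of MSC 1, MSC 2, MSC 3 and TL1 1a (adjusted p up to 0.160). Higd1a lost its call with the second lines of the numbers alone (adjusted p = 0.0542).

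How the lines differ among themselves was tested by asking whether the 3 numbers, with 2 lines each, have the same mean. In a fit where the MSC libraries share the estimate of spread, 664 of 13010 genes were called (5.1%), and 3811 had an unadjusted p under 0.05. Number 2 was farthest from the others for 380 of them (57.2%), number 3 for 240 and number 1 for 44. The count depended on the libraries fitted: it was 10 from the TL1 libraries alone, 44, 86 and 78 without MSC 1, MSC 2 and MSC 3, 24 and 26 without TL1 2a and 2b, 419 without TL1 3a and 1569 without TL1 3b. Deviations of lines with the same number correlated at r = 0.457 for 2a and 2b, -0.0417 for 1a and 1b and 0.0616 for 3a and 3b, across genes, which are not independent replicates. Deviations were taken from the mean of the 6 lines, which pulls such correlations below 0. Pairs of unlike numbers lay at r = -0.567 to -0.0317, and of the like pairs only 1a and 1b fell within that range.

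Lines 2a and 2b set the clearest of these genes apart. Aasdhppt, which activates acyl carrier proteins, had 25.5, 24.7 and 22.6 CPM in MSC 1 to 3 and 40.5, 38.7, 578, 542, 30.3 and 28.2 CPM in TL1 1a, 1b, 2a, 2b, 3a and 3b (adjusted p over the numbers = 0.000141). Msantd4 had 53.6, 59.7 and 49.3 CPM in MSC 1 to 3 and 84.7, 71, 743, 774, 64.2 and 39.7 CPM in TL1 1a, 1b, 2a, 2b, 3a and 3b (adjusted p = 0.00147). With Kbtbd3 and Gria4 they formed a run of 4 neighbours on chromosome 9 (4294793 to 4796234) that were all called by number, though Gria4 was highest in 1a and 1b, at 25.1, 9.92, 0.474, 0.535, 1.0 and 0.381 CPM. Kbtbd3 was at 2.62, 2.22, 34.9, 26, 2.94 and 1.22 CPM, highest in 2a and 2b. Kbtbd3 and Gria4 were chosen after their values were seen. Stat6, the signal transducer of interleukin-4, was near 0 in both lines, at 151, 129 and 154 CPM in MSC 1 to 3 and 64.9, 81.1, 0.271, 0.229, 57.3 and 106 CPM in TL1 1a, 1b, 2a, 2b, 3a and 3b (adjusted p = 0.00112), and so was Tbrg1, a regulator of p53, at 169, 178 and 161 CPM in MSC 1 to 3 and 64, 120.1, 0.0677, 0.229, 144 and 102 CPM in TL1 1a, 1b, 2a, 2b, 3a and 3b (adjusted p = 0.00121). Dlg4, a synaptic scaffold protein, was at 37.3, 30.5, 3.52, 3.51, 109 and 54.2 CPM, lowest in 2a and 2b (adjusted p = 0.00893). In Aasdhppt, Msantd4, Kbtbd3, Stat6 and Tbrg1 the other 4 lines lay nearer to MSC than to 2a and 2b on a log scale.

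Lines with number 3 stood apart in other genes, nearest to MSC in Ror2, Bicc1 and Pdgfra. Ror2, a receptor of WNT5A, had 38, 30.1 and 33.3 CPM in MSC 1 to 3 and 0.0749, 0, 0.339, 0.687, 31.4 and 31.9 CPM in TL1 1a, 1b, 2a, 2b, 3a and 3b, so that 3a and 3b lay at the level of MSC and the other 4 lines lay under 1 CPM (adjusted p = 0.00112). Bicc1, an RNA-binding protein, had 96.9, 115 and 142 CPM in MSC 1 to 3 and 2.17, 1.5, 1.02, 1.76, 23.2 and 22.3 CPM in TL1 1a, 1b, 2a, 2b, 3a and 3b (adjusted p = 0.00377), and Pdgfra, the PDGF receptor that marks stroma, 97.2, 149 and 170.5 CPM in MSC 1 to 3 and 9.44, 11.9, 1.76, 1.45, 72.1 and 36.1 CPM in TL1 1a, 1b, 2a, 2b, 3a and 3b (adjusted p = 0.00999). Sgsm1 and Sema4g went above MSC in 3a and 3b. Sgsm1 had 2.89, 1.99 and 1.75 CPM in MSC 1 to 3 and 0.225, 0.457, 0.948, 0.917, 25 and 15.7 CPM in TL1 1a, 1b, 2a, 2b, 3a and 3b (adjusted p = 0.00893). Sema4g, a semaphorin, had 9.98, 10.5 and 10.4 CPM in MSC 1 to 3 and 10.04, 8.36, 0.406, 0.840, 47.9 and 23.2 CPM in TL1 1a, 1b, 2a, 2b, 3a and 3b (adjusted p = 0.0102), with 1a and 1b at the level of MSC. H19, an imprinted growth-restricting RNA, had 444, 202 and 258 CPM in MSC 1 to 3 and 0.674, 0.392, 229, 1863, 0.574 and 0.838 CPM in TL1 1a, 1b, 2a, 2b, 3a and 3b, so that it was kept in number 2 and under 1 CPM in the others (adjusted p = 0.0103). Igf2, the growth factor next to it, had 171, 47.1 and 365 CPM in MSC 1 to 3 and 466, 110.0, 0.881, 0.382, 1788 and 30.9 CPM in TL1 1a, 1b, 2a, 2b, 3a and 3b, near the reverse order, with adjusted p = 0.0687. Igf2 (chromosome 7, 142650768 to 142666816) and H19 (142575530 to 142578146) do not overlap each other. Without a stated strand setting of the counting, reads of any other gene that overlaps either cannot be told apart, and this was not tested.

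Some lines had high levels of genes known as oncogenes. Yap1, the Hippo pathway effector, had 203, 192 and 173 CPM in MSC 1 to 3 and 1325, 173, 2583, 2692, 191 and 131 CPM in TL1 1a, 1b, 2a, 2b, 3a and 3b, and its chromosome 9 neighbour Birc2, an inhibitor of apoptosis, 167, 19.97, 246, 217, 34.5 and 15.2 CPM in the lines. Both were high in 1a, 2a and 2b and near MSC in 1b and 3b, with adjusted p = 0.181 and 0.116 against MSC and 0.0554 and 0.102 over the numbers. Tmem123 and Dcun1d5, chosen after their values were seen, followed the same lines, at 1586, 233, 1685, 2157, 367 and 108 CPM and 699, 76.4, 1547, 1593, 63.2 and 65.2 CPM. Met, the receptor of hepatocyte growth factor, had 41.8, 85.4 and 64.3 CPM in MSC 1 to 3 and 178, 407, 160.3, 252, 2509 and 114 CPM in TL1 1a, 1b, 2a, 2b, 3a and 3b. With Cav1 (336, 873, 413, 436, 6099.8 and 283 CPM) and Capza2 (163, 466, 211, 230.5, 2882 and 130.2 CPM), both chosen after their values were seen, it was highest in 3a. Myc had 159, 146 and 181 CPM in MSC 1 to 3 and 122, 207, 236, 181, 136 and 632 CPM in TL1 1a, 1b, 2a, 2b, 3a and 3b, and the neighbouring Pvt1, chosen in the same way, 14.8, 16.3, 19.4, 10.2, 15.4 and 145 CPM, both highest in 3b. The calls against MSC had adjusted p = 0.120 for Met and 0.466 for Myc. Mycn was below the filter on low counts, at no more than 4.35 CPM in any line.

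**Figure D4:**
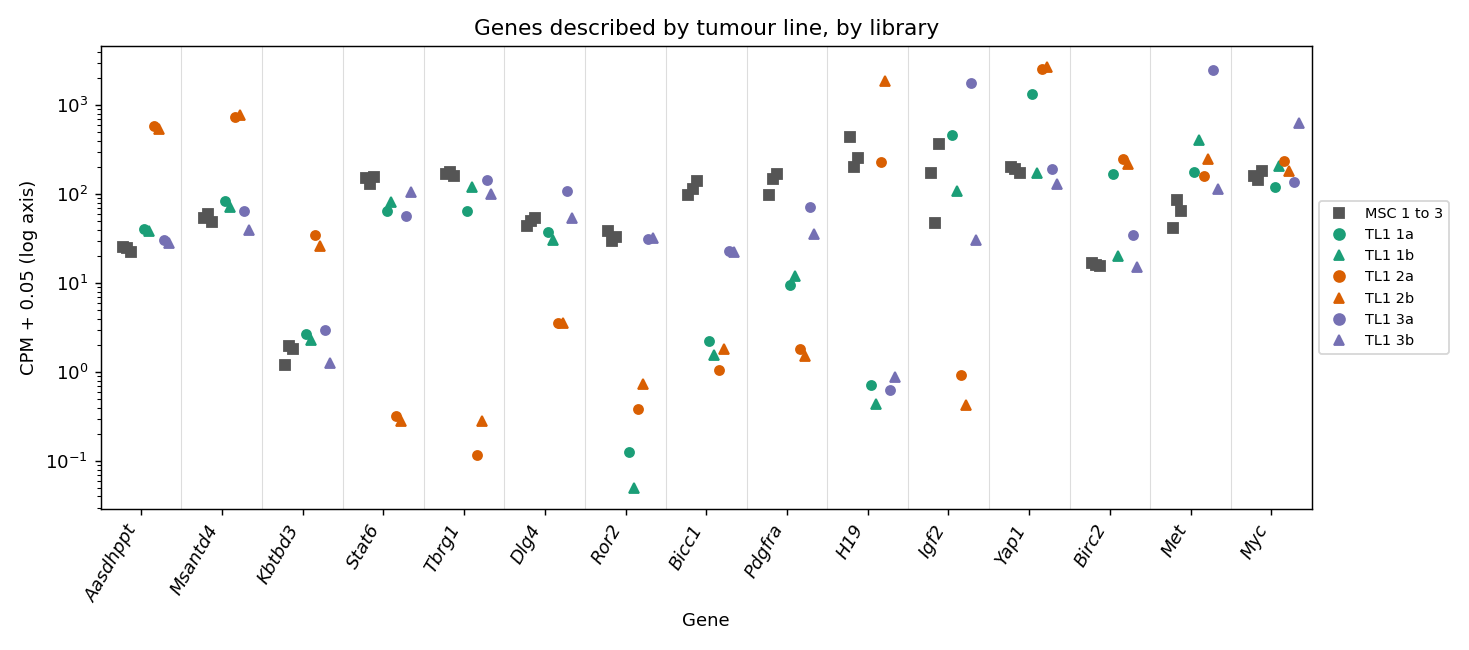
CPM plus 0.05 on a log axis of 15 genes in the 3 MSC libraries (squares) and the 6 TL1 lines (circles and triangles, coloured by number). Lines 2a and 2b (orange) stand apart in Aasdhppt, Msantd4, Kbtbd3, Stat6 and Tbrg1, lines 3a and 3b (violet) stay with MSC in Ror2, and single lines are highest in Met (3a) and Myc (3b).

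Whole chromosomes differed in their median. For each library, log2 CPM minus the mean of MSC (for an MSC library, of the other 2) was taken as a median over the genes of a chromosome and centred on all genes. Between MSC libraries no chromosome went beyond 0.26 in size, whereas 45 of 120 values of TL1 lines did, 6 to 9 in each line. Chromosome 3 was higher in all 6 lines, by 0.28 to 0.60, with 7.63% of its 642 tested genes called higher against 2.74% of all. Chromosome 15 was above 0 in all 6, by 0.12 to 0.64, with 6.31% of 523 genes called higher. Chromosome 7 was lower in all 6, at -0.61 to -0.20, with 6.47% of 943 genes called lower against 3.19%, though MSC 2 was at -0.26 as well. Chromosome 2 was below 0 in all 6, at -0.43 to -0.05, and 5.00% of 1021 genes were called lower. Other chromosomes differed by line: chromosome 12 reached 0.66 in 3b, chromosome 10 -0.66 in 3a, chromosome 8 0.57 in 2b, and chromosome 9 -0.59 and -0.46 in 2a and 2b. Of the genes of chromosome 8, 10.1% were called by number, the largest share of any chromosome. No run of 4 or more neighbouring genes was called in 1 direction between TL1 and MSC.

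**Figure D5:**
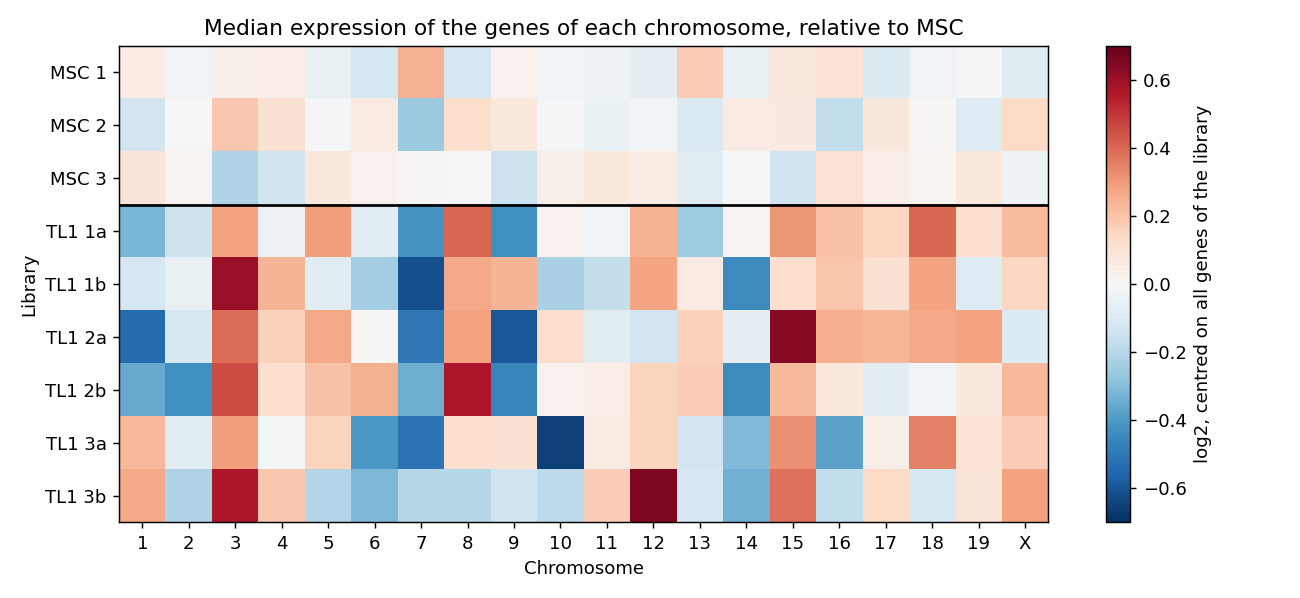
Median log2 CPM relative to MSC over the genes of each chromosome (x axis), centred on all genes of the library, for the 3 MSC libraries above the line and the 6 TL1 lines below it (red higher, blue lower). Chromosome 3 is red and chromosome 7 blue in all 6 lines, while chromosomes 1, 8, 9, 10 and 12 differ between lines.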

How the data were processed

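RNA of 9 libraries was measured by sequencing: 3 of MSC and 6 of TL1. The submitters' processing notes list HTSeq 0.6.1p1, DESeq2 1.6.3, TopHat2 2.0.10 and cutadapt as tools, and mm10 as the mouse build. Which annotation was used, and whether counting used strand, is not given in the sources used here. Values for 23420 genes, listed by symbol, are whole-number counts as deposited, without normalization. Of the columns of the deposited table, 4 match no sample and were not used. Totals of 12540701 to 14574984 counts per library limit precision for genes with few counts. Intervals and floors cover counting error only. The floor against a group without a count was 3 counts over the group.

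Counts were tested with edgeR 4.0.16 (R 4.3.3): TMM scaling, filterByExpr, which kept 13010 genes, robust quasi-likelihood fits and Benjamini-Hochberg adjustment over all tested genes of each of 2 tests. The first compared TL1 with MSC. The second compared the 3 numbers among TL1. SE is the size of the log2 change divided by the square root of F. Calls have an adjusted p under 0.05. Alternatives were scaling by library totals or DESeq2 size factors, DESeq2 1.42.0, limma-voom 3.58.1, no filter, no robust fit, summed lines of a number, first or second lines alone, a replicate block and leaving out each library. The scripts were tested on simulated data. Counts of library pairs differed beyond sampling noise in every pair, with chi-square per degree of freedom of at least 30.5, so none was treated as a duplicate.

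In the 47 gene lists, 994 of 1163 genes in the table passed the filter. Named genes were Trp53, the 12 called genes with the largest changes in each direction (groups without overlap, higher mean 10 CPM or more, predicted genes left out), up to 4 called genes per list with the smallest p, the 10 with the smallest p by number by a like filter, and a fixed set of known genes, 144 in all, a few of which are not reported here. Members and lists were chosen with earlier results of these data known. Promoters and positions are from RefSeq (GRCm38.p6), with 12969 tested genes matched by symbol or synonym.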

Additional observations from a re-analysis of the deposited data

Results flagged for a closer look

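Among the 6 TL1 libraries, 1 library lay apart from the others in 15 of 190 values tested by the gap to the nearest other line over the whole range (Dixon's criterion), and chance gives about 1 in 20. Line 3a was apart with the highest Sparc (3136 CPM) and Fbn2 (6.46 CPM) and in the median of imprinted genes, at 0.18 from the mean of the 9 libraries on the log2 scale. Line 3b had the highest Rpl39l (0.381 CPM) and Ndn (0.686 CPM), the lowest Tgfa (0.991 CPM) and Sema4d (3.89 CPM), Higd1a apart at 65.9 CPM, and a median of 0.25 for DNA methylation and Polycomb genes. Line 1b was the only line with counts of Srpx (0.131 CPM) and had the highest Pim3 (189.9 CPM). Line 2b was the only line with a count of Hoxb3 (0.0764 CPM), and its Ier3 was apart at 87.5 CPM. Over all lines Srpx had 2 counts and Hoxb3 had 1 count. Where all other lines have no count, the gap equals the whole range, so the flags of Srpx and Hoxb3 were fixed in advance. Line 2a was apart in the medians of EMT factors and cadherins (-0.61) and of sterol and fatty acid genes (-1.34).

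The 3 numbers among TL1 differed in the edgeR quasi-likelihood test of the difference itself for 15 named genes. The first 10 below were named for their small p in this same test, so their calls were fixed by that choice. Among all tested genes 5.1% were called, and with the TL1 libraries alone 10 genes in all. The adjusted p was 0.000141 for Aasdhppt, 0.00112 for Stat6 and for Ror2, 0.00121 for Tbrg1, 0.00147 for Msantd4, 0.00377 for Bicc1, 0.00893 for Sgsm1 and for Dlg4, 0.00999 for Pdgfra, 0.0102 for Sema4g and 0.0103 for H19. Genes that were also called between TL1 and MSC were Il33 (0.0159 over the numbers), highest in number 1, Dhrs3 (0.0254), Tgfbr3 (0.0335) and Eya2 (0.0385), detected in number 3 alone.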

How the results depend on the processing

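Numbers of genes called higher and lower moved by more than 1.5 times under few of the alternatives other than leaving out a library: DESeq2 called 1153 and 926, limma-voom called 687 lower, the first lines of the numbers gave 175 and 213, and the second lines 218 higher. Leaving out 1 library gave 31 to 548 higher and 130 to 683 lower. The test over numbers called 10 genes in TL1 libraries alone, 2823 with DESeq2 and 24 to 1569 with 1 library left out. Of 128 named genes called, 50 held in all 9 fits with 1 library left out and 43 in all settings. Calls were lost most often without MSC 3 (74) or MSC 1 (71). Limma-voom lost 22 of these calls and the first and second lines alone 59 and 37. Summing the lines of each number lost 21 of them. That fit called 346 genes higher and 393 lower, of which 244 and 312 were among the 356 and 415 called with the lines kept apart. Deviations of MSC and TL1 with the same number correlated at r = 0.0246, 0.0459 and 0.172, and MSC 3 alone correlated best with its own number. What the number marks was not settled, and it was not taken as a pairing. With the number as a replicate block, 396 genes were called higher and 561 lower.

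The log2 change of 8 genes, none of them called between TL1 and MSC, changed sign, and the cause was not tested. Trp53 was at -0.10 in first lines and -0.034 to 0.21 with 1 library left out (-0.034 without TL1 2a, -0.0056 without TL1 3b). Sgsm1 was at -0.23 with limma-voom and -0.94 with the block, and Dlg4 at 0.036 in first lines. Sema4g was at -0.86 with limma-voom, -1.16 with the block and -0.26 (without TL1 3a) to 0.81 with 1 library left out. Igf2 was at -2.15 with limma-voom, -1.7 with the block, -2.05 in second lines and -0.68 (without TL1 3a) to 1.86 with 1 library left out. H19 was at -5.51 with limma-voom, -7.74 with the block, -2.0 in first lines and -2.70 (without TL1 2b) to 0.60 with 1 library left out, with -0.0073 without MSC 2. Lifr was at -0.41 in second lines, and Cav1 at -0.061 (without TL1 3a) to 1.73. At the depth of these libraries, genes with a few counts in the lower group have folds limited by depth.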

Other observations

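Genes present in 1 line alone, with at least 10 CPM there and under 0.5 CPM in the other 8 libraries, were 2 in TL1 1a (Spock3 and Sis), 1 in TL1 1b (Ndp, a secreted ligand of Frizzled-4), 4 in TL1 3a (Gabra3, a GABA receptor subunit, Col13a1, a transmembrane collagen, Spock1 and Cadm3) and 3 in TL1 3b (Scn9a, a sodium channel, Gjb5, a connexin, and Gata4, a factor of heart and endoderm). Lines 2a and 2b had 0 such genes each. These genes were chosen by their values, so their levels are a description without a test.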
